A study of Rattus norvegicus with 6 samples.

Results

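The genes described here are 7 markers of lymphatic endothelium, the cells that line lymph vessels: Lyve1, Prox1, Foxc2, Ccl21, Pdpn, Reln and Sema3d. They were chosen by symbol in the platform annotation of the array. Each has 1 probeset, and all 7 were kept by a filter on dim genes, among 11515 genes tested of 15037 with a symbol. The samples are endothelial cells of abdominal skin from 3 Il33 knockout Sprague-Dawley rats (animals 28, 27 and 52) and 3 wildtype rats (34, 45 and 37). Each genotype holds 2 females and 1 male, and the males are knockout 52 and wildtype 37. Skin of all 6 animals was digested with collagenase I and DNase I, cleared of cells bearing CD45 and then of cells bearing Lyve-1, and the cells that bound CD31 antibody were kept for RNA. Neither the deleted stretch of Il33 nor the animals' age is given in the labels. Values are log2 expression after RMA, the authors' normalization, with 1 array per animal.

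Lymphatic and blood endothelium share surface CD31, so a positive selection for CD31 keeps both, and only the Lyve-1 step of this sort separates them. Prox1 is the transcription factor that sets and maintains lymphatic identity. Lyve1 is a hyaluronan receptor that is abundant on lymphatic capillaries and low on collecting vessels in the mouse, whereas Foxc2 marks collecting vessels and valves. The comparison asks how much lymphatic RNA the sort left in each animal, and whether that amount went with genotype.

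The stretches before the start sites of 3 of these genes are shown because Lyve1 encodes the antigen of the depletion, and Ccl21 and Pdpn had the largest differences between males and females. Each is 250 bases of RefSeq sequence on build GRCr8, written 5′ to 3′ and ending at the base before the start used in the promoter table, which for Pdpn lies within the annotated extent of the gene. Capitals mark a match to a motif named below.
Lyve1 (chr1:174410978-174411227, minus strand): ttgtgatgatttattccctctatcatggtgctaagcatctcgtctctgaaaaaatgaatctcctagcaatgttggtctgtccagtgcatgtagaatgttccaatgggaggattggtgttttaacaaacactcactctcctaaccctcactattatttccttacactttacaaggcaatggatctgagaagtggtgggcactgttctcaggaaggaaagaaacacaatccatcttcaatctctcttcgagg
Ccl21 (chr5:61777516-61777765, minus strand): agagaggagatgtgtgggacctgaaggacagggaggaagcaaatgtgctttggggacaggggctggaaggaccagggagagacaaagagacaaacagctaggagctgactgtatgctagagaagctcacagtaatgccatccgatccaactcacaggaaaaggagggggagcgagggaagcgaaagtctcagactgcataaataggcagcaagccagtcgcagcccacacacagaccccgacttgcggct
Pdpn (chr5:160918960-160919209, minus strand): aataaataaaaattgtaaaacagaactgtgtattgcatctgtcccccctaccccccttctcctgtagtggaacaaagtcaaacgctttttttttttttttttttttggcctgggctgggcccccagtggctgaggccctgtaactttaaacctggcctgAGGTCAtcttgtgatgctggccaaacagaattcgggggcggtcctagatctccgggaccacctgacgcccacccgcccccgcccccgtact

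Upstream sequence was found for 5 of the 7 members, without Prox1 and Foxc2. It was searched on both strands for 4 short motifs of lymphatic transcription factors, of which the SOX and forkhead motifs can share letters. The SOX motif AACAAT, the forkhead motif TAAACA and the GATA motif AGATAA were found in 0 of 5 members, against 10.3%, 12.2% and 10.05% of 27457 promoters of the same length. The COUP-TF motif AGGTCA, the type bound by Nr2f2, lies 91 bases before the start of Pdpn and is held by 13.7% of all promoters. The window is short and a match is a description of these letters, so the search says nothing on whether a factor binds.

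Endothelial genes had high signal on every array. Plvap and Cdh5, genes of the fenestral diaphragm and of the endothelial junction, lay between 19.62 and 19.90, near the ceiling of the scale (19.70 to 19.93 per array). Values so near the ceiling cannot show differences in purity. Genes of other cells had signal too, with Rgs5 of pericytes at 16.49 to 18.68 and Krt15 of keratinocytes at 9.18 to 17.82. Il33 averaged 8.75 ± 0.94 in the knockout and 15.59 ± 1.51 in the wildtype (SD, n = 3 each; limma adjusted p = 0.0439), in the direction its labels give. The position of the deletion relative to the probes is not known. Spike-in controls split the arrays into a high side (knockout 28, wildtype 34 and 45) and a low side (knockout 27 and 52, wildtype 37), so both males lie on the low side, together with 1 female. Each animal gave 1 array, and the number of arrays limits the precision.

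Lymphatic signal was left after the sort. Background was taken as the 95th percentile of the 23 background probesets of an array, which was 5.12 to 5.40 (log2). Ccl21, Pdpn, Reln and Sema3d were above it on all 6 arrays. Lyve1 and Prox1 were above it on 5 arrays and below it in wildtype 37, and Foxc2 was below it on all 6. Reln in wildtype 37 was just above the limit, at 5.41, and below the 99th percentile of the background probesets. At this level Foxc2 is not measured apart from background. In RNA of a sorted population, fewer cells of a type and less RNA per cell cannot be told apart.

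Lyve1, the gene of the depleted antigen, had values of 6.07, 8.22 and 7.27 in knockout 28, 27 and 52, against 5.86, 7.62 and 5.04 in wildtype 34, 45 and 37. The groups overlap, and females and males overlap as well, since knockout 52, a male, lies above 2 of the females. Prox1, the transcription factor of lymphatic identity, had values of 6.67, 6.35 and 5.74 in the knockout animals and of 6.36, 8.03 and 4.41 in the wildtype animals. Wildtype 45 was highest and wildtype 37 lowest, so both extremes belong to the wildtype. Foxc2, the transcription factor of lymphatic valves, had values of 4.60, 4.53 and 4.26 in the knockout animals and of 4.49, 3.83 and 3.85 in the wildtype animals, below the background limit throughout.

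Ccl21, the chemokine that draws Ccr7-bearing dendritic cells into lymph vessels, had the strongest swing of the members. It stood at 16.14, 17.06 and 13.13 in knockout 28, 27 and 52, against 15.00, 15.82 and 9.91 in wildtype 34, 45 and 37. All 4 females lie at 15.00 or above, and the difference from the lowest female was -1.87 for male knockout 52 and -5.09 for male wildtype 37. The genotypes overlap because the male knockout is lower than both wildtype females.

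Pdpn encodes podoplanin, a membrane glycoprotein of lymphatic endothelium that binds CLEC-2 on platelets and is made by keratinocytes and fibroblasts too. Its values were 9.64, 10.31 and 7.87 in knockout 28, 27 and 52, against 9.69, 10.07 and 6.11 in wildtype 34, 45 and 37. Reln, a large secreted glycoprotein, had values of 8.58, 8.90 and 6.96 in the knockout animals and of 8.88, 8.55 and 5.41 in the wildtype animals. For both genes the 4 females lie close together (SD 0.32 and 0.19) and both males are lower, wildtype 37 most of all. Sema3d, a secreted guidance factor of the semaphorin family, had values of 7.86, 8.19 and 7.03 in the knockout animals and of 10.03, 8.25 and 5.90 in the wildtype animals. Here wildtype 34 stands above the other females and the males are again lowest.

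**Figure D1:**
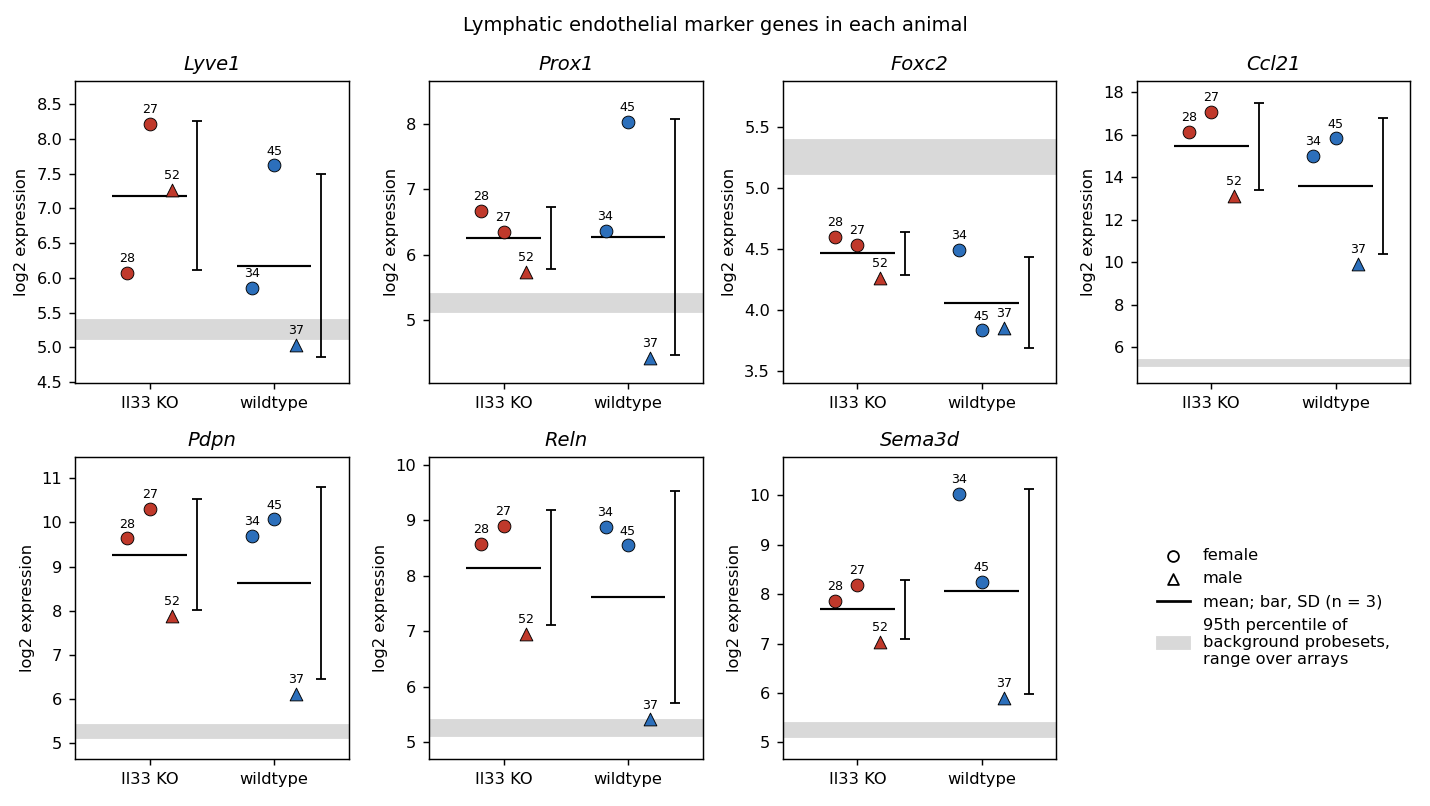
Log2 expression of the 7 lymphatic markers in each animal, with the Il33 knockout at the left and the wildtype at the right of each panel; circles are females, triangles males, horizontal lines group means and bars the SD (n = 3). Male triangles are the lowest points of both genotypes for Prox1, Ccl21, Pdpn, Reln and Sema3d, and Foxc2 lies below the grey background band on all arrays.

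No member passed the test between genotypes. By limma with adjustment over all genes, 0 of the 7 members passed, where 0.00868% of the genes tested did (1 gene, Il33), and each member had an adjusted p of 0.999. At an unadjusted p under 0.05, 0 of 7 members and 1.97% of all genes passed. The genotypes overlapped for every member, whereas they were apart for 6.25% of all genes (knockout above for 3.36%, below for 2.89%). The mean was higher in the knockout for 5 of 7 members, against 54.1% of all genes, and the median difference was 0.53 over the members and 0.037 over all genes tested. The 5 include Foxc2, which was below background on every array.

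Ccl21 averaged 15.44 ± 2.06 in the knockout and 13.58 ± 3.20 in the wildtype (SD, n = 3 each), a difference of 1.87 on the log2 scale with a 95% interval of -1.39 to 5.12. With sex as a covariate the difference was again 1.87, with SE 0.48, a 95% interval of 0.78 to 2.95, a limma unadjusted p of 0.00354 and an adjusted p of 0.961. In that model 1 of 7 members, Ccl21, had an unadjusted p under 0.05, against 4.11% of all genes. The difference of Ccl21 was 2.96 with the spike-in side as a block (unadjusted p = 0.0209, adjusted 0.999, limma) and 3.30 with the keratinocyte covariate (0.0145, adjusted 0.999). For Lyve1 the means were 7.19 ± 1.08 and 6.17 ± 1.32, and the difference was 1.01 (95% interval -0.56 to 2.59). Prox1 averaged 6.25 ± 0.47 in the knockout and 6.27 ± 1.81 in the wildtype, so its means nearly coincided while the animals spread widely. Differences for the rest were 0.65 for Pdpn, 0.53 for Reln, 0.41 for Foxc2 and -0.37 for Sema3d. Their intervals were -1.56 to 2.86 for Pdpn, -1.41 to 2.48 for Reln, -0.34 to 1.16 for Foxc2, -2.29 to 1.56 for Sema3d and -1.72 to 1.69 for Prox1. In this model without sex, differences of 1 in either direction lie inside the intervals of Pdpn, Reln, Sema3d and Prox1. With sex as a covariate the intervals were -0.27 to 1.57 for Pdpn, -0.32 to 1.38 for Reln, -1.63 to 0.90 for Sema3d and -1.20 to 1.18 for Prox1. There -1 lies outside the intervals of Pdpn and Reln, and 1 outside that of Sema3d.

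Wildtype 37 weighs heavily in these means. It had the lowest value of the 6 arrays for 6 of 7 members, against 10.6% of all genes. Without it the wildtype group holds no male, so genotype and sex cannot be told apart in that setting. The differences were then 0.033 for Ccl21, 0.45 for Lyve1, -0.94 for Prox1, -1.45 for Sema3d, -0.61 for Pdpn and -0.57 for Reln. Pdpn and Reln changed sign. Among females alone the difference was 1.19 for Ccl21 (limma unadjusted p = 0.0436, adjusted 0.904), 0.41 for Lyve1, 0.095 for Pdpn, 0.025 for Reln, -0.69 for Prox1 and -1.12 for Sema3d.

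**Figure D2:**
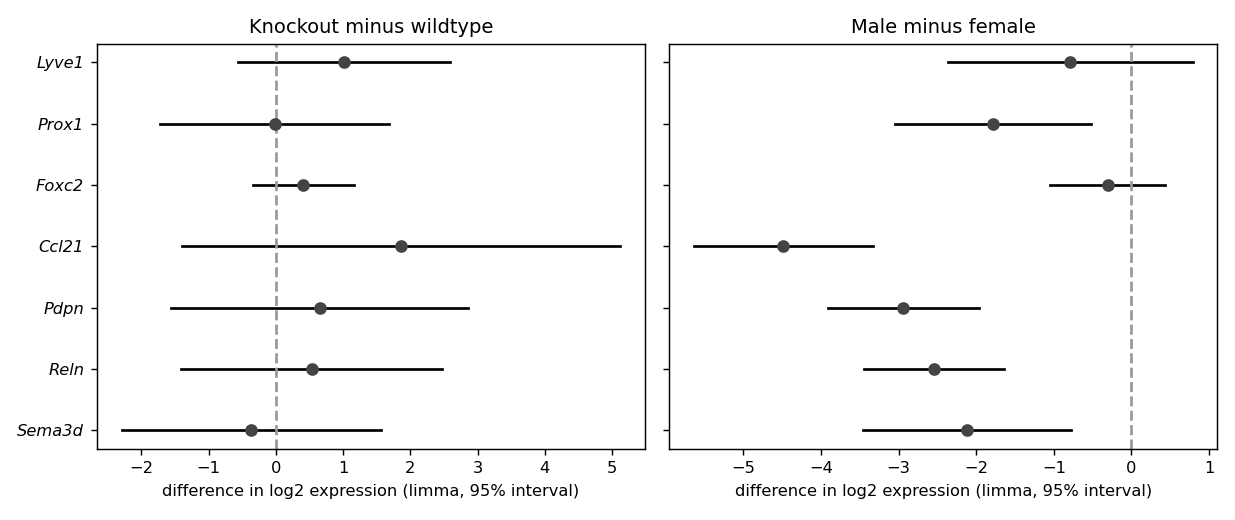
Differences in log2 expression for the 7 markers, knockout minus wildtype at the left and male minus female at the right; points are limma estimates and lines their 95% intervals. All 7 intervals cover 0 between genotypes in the model without sex, which the left panel shows, and those of Prox1, Ccl21, Pdpn, Reln and Sema3d lie below 0 between sexes before adjustment.

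Ccl21 was the member that passed the test between sexes. In a limma fit with genotype and sex, Ccl21 fell in males by 4.49 on the log2 scale (SE 0.51, 95% interval -5.64 to -3.33, adjusted p = 0.0322), with 11.52 in males and 16.01 ± 0.85 in females (SD, n = 4). It was 1 of 3 genes called between sexes (0.0261% of the genes tested), and the others were the Y-linked Ddx3y and Eif2s3y. Of all 11515 genes, Ccl21 had the second lowest male minus female difference. The other 6 members did not pass the adjusted test. Pdpn differed by -2.94 (SE 0.43) and Reln by -2.54 (SE 0.40), each with a limma adjusted p of 0.0654. The differences were -2.12 for Sema3d (adjusted p = 0.146), -1.78 for Prox1 (0.167), -0.79 for Lyve1 (0.568) and -0.31 for Foxc2 (0.637). Without wildtype 37 the differences were -0.77 for Prox1 and -0.995 for Sema3d, and Sema3d stood at -0.81 with the keratinocyte covariate.

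The male mean was below the female mean for all 7 members, against 38.3% of all genes. These 7 include Foxc2, below background on all 6 arrays, and Lyve1, whose difference was 0.125 without wildtype 37. An unadjusted p under 0.05 was found for 5 of 7 members, all lower in males, against 18.7% of all genes in either direction and 3.84% with lower values in males. Both male arrays lay below all 4 female arrays for 5 of 7 members, against 8.26% of all genes, and the reverse order was found for 0 of 7 against 23.5%. That count was 5 for knockout 52 alone (15.4% of all genes) and 6 for wildtype 37 alone (14.7%). The median of the male minus female difference was -2.12 over the members, while it was 0.18 over all genes tested.

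The call for Ccl21 depends on the model, though its direction does not. It was lost without wildtype 34 (limma adjusted p = 0.0521), wildtype 45 (0.0713), knockout 52 (0.0602) or wildtype 37 (0.877), with the spike-in side as a block (0.822) or the keratinocyte median as a covariate (0.253), after a further quantile normalization (0.0628) and with sex alone in the model (0.0704). Over these and the other settings its difference ranged from -5.50 to -3.47. Other measured properties of the arrays went with sex, and their part in the difference was not tested. Keratinocyte markers had a mean of 7.36 and 7.13 in males 52 and 37, against 7.62 to 11.80 in the females. Knockout 27 is the female nearest to the males in that mean (7.62) and lies with them on the low spike-in side, and it had the highest Ccl21, Pdpn, Reln and Lyve1 of all arrays. With 2 males, a sex difference and variation between single animals cannot be told apart.

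**Figure D3:**
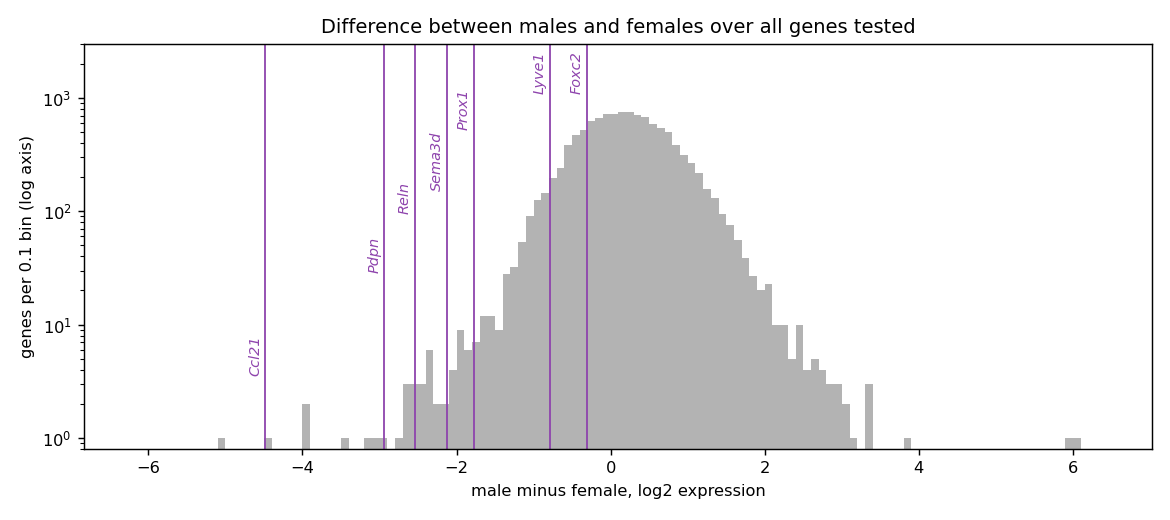
Histogram of the male minus female difference in log2 expression over the 11515 genes tested, with the number of genes on a log axis; vertical lines mark the 7 markers. Ccl21 at -4.49, Pdpn at -2.94 and Reln at -2.54 lie far in the lower tail, while Lyve1 at -0.79 and Foxc2 at -0.31 lie closer to the centre.

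The male animals also differed from each other. Knockout 52 was above wildtype 37 for all 7 members, against 50.9% of all genes, and by at least 1 on the log2 scale for 6 of 7, against 1.59%. Foxc2, below background on both male arrays, is among the 7 but not among the 6. The gap was 3.22 for Ccl21, 2.23 for Lyve1, 1.76 for Pdpn, 1.55 for Reln, 1.33 for Prox1, 1.13 for Sema3d and 0.41 for Foxc2. With 1 male per genotype this gap has no replicate, and genotype and animal cannot be told apart in it. The interaction of genotype with sex passed for 0 of 7 members and for 0% of all genes (limma, 119 genes at an unadjusted p under 0.05, or 1.03%). Its estimate for Ccl21 was 2.03 (95% interval 0.045 to 4.02), with an unadjusted p of 0.0461 and an adjusted p of 0.999.

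Correlations between the members were computed over the 6 animals. Pearson's r was above 0 for all 21 pairs of members, with a median of 0.62, and 0 pairs passed an exact permutation test adjusted over the 21 pairs (5 at an unadjusted p under 0.05, and 0 by rank). These pairs include those with Foxc2, which was below background on all 6 arrays. The share of positive r over all pairs of genes is not given here. The closest pair was Pdpn and Reln (r = 0.987, exact permutation p = 0.00972, adjusted 0.0656; Spearman's rho = 0.829, p = 0.0583, adjusted 0.357). Next came Pdpn and Ccl21 (r = 0.982, exact permutation p = 0.00556, adjusted 0.0656; rho = 0.829, p = 0.0583, adjusted 0.357). Without the 2 arrays farthest from the median of Pdpn, which are both males, r was 0.26 for Pdpn and Reln and 0.71 for Pdpn and Ccl21. For Ccl21 and Reln it was 0.963 (exact permutation p = 0.0125, adjusted 0.0656) with all arrays and 0.087 without those males.

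Prox1 with Pdpn gave r = 0.855 (exact permutation p = 0.0194, adjusted 0.0817; rho = 0.60, p = 0.242, adjusted 0.423) 0.82 without wildtype 37 and 45, and 0.19 within the 4 females. Reln with Sema3d gave r = 0.862 (exact permutation p = 0.0111, adjusted 0.0656; rho = 0.714, p = 0.136, adjusted 0.357) and 0.58 without the males. Within the 4 females, as a description, the median r was 0.097 and 12 of 21 pairs were above 0, and the pair with the highest value was Lyve1 and Pdpn (0.986). Each spike-in side holds 3 arrays, too few for a value of its own. Lyve1 had r between 0.14 and 0.66 with the other members over all 6 arrays.

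**Figure D4:**
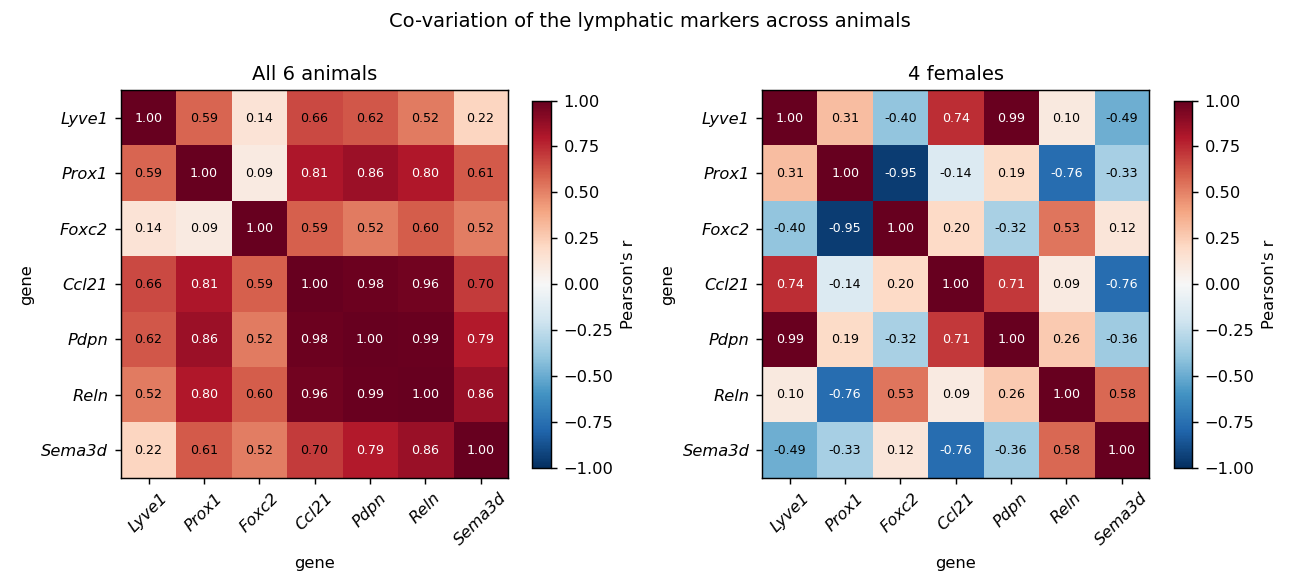
Pearson's r between the 7 markers, over all 6 animals at the left and over the 4 females at the right, with colour from -1 to 1. All pairs are above 0 at the left, with Ccl21, Pdpn and Reln highest (0.96 to 0.99). At the right values run from -0.95 (Prox1 and Foxc2, the latter below background) to 0.99, with 0.71 for Pdpn and Ccl21 and 0.09 for Ccl21 and Reln.

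Among 5018 genes with an SD of at least 0.5 over the 6 arrays, those nearest to the mean standardised pattern of the members were Aadacl2 (r = 0.978), Dok5, Cd9, Clrn1, Tc2n, Otor, Or14a257 and Sdc4 (0.932). Only Cd9 and Tc2n were above background on all 6 arrays and Sdc4 on 5, and the other 5 genes on none. Cd9, a tetraspanin, had values of 12.38, 12.31 and 11.25 in the knockout animals and of 13.10, 12.94 and 9.52 in the wildtype animals, so it too was lowest in both males. Nearest to Lyve1 alone were Tagln3 (0.95), Ago3, Tlcd5, Lbp and Tas1r3 (0.905), of which Lbp, the lipopolysaccharide binding protein, was above background on all arrays. Nearest to Prox1 were Bcl2l10 (0.989), Insyn1, Wnt16, Or6c1 and Ston2 (0.978), of which Ston2 was above background on 5 arrays. Over 6 arrays and 5018 genes, the highest values of r are a description only.

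Other markers of lymphatic endothelium were measured for 16 further genes, and 0 of them passed between genotypes or between sexes. Their median male minus female difference was -0.46. An unadjusted p under 0.05 between sexes (limma) was found for 11 of 16, 7 lower and 4 higher in males, against 18.7% of all genes in either direction. Both males lay below all females for 6 of 16 (8.26% of all genes) and above them for 3 (23.5% of all genes). The 6, named after their values were seen, were Flt4, the receptor of VEGF-C, Pkhd1l1, Klhl4, Ackr2, a scavenging chemokine receptor, the claudin Cldn11 and Cd9. Of these, Cldn11 was above background on only 1 array, Ackr2 on 3, Flt4 on 5 and the others on all 6. Flt4 had values of 6.70, 7.12 and 5.88 in knockout 28, 27 and 52, against 6.36, 6.14 and 5.07 in wildtype 34, 45 and 37, the last below background. Pkhd1l1 had values of 10.48, 10.27 and 7.79 against 9.95, 10.78 and 8.04 (male minus female -2.46, limma adjusted p = 0.0654). The 3 with both males above all females were Fgl2, Gja1 and, named after its values were seen, Cp. Cp had values of 10.18, 12.34 and 12.98 in the knockout animals and of 11.34, 11.22 and 12.76 in the wildtype animals. The 3 genes of the list with the highest signal were Fgl2, Gja1 and Efemp1, which blood endothelium or stroma express as well. Whether other cells also express the 6 genes lower in males was not tested. Fgl2, Gja1 and Efemp1 differed between sexes by 1.06, 1.30 and 1.06, the opposite direction to the 6, and none passed.

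Transcription factors that act in lymphatic cells beside Prox1 gave no call. Of 9 tested, 0 passed in either comparison, and both males lay below the females for 1 (Maf, named after its value was seen) and above them for 2, against 8.26% and 23.5% of all genes. Nr2f2, which works with Prox1 in lymphatic and venous cells, had values of 14.13, 14.60 and 15.36 in the knockout animals and of 13.69, 14.20 and 15.62 in the wildtype animals, highest in both males. Sox18, the inducer of Prox1 in the mouse embryo, differed by -0.34 between sexes and Hey1 by 0.64. Genes of VEGF-C signalling, 7 tested, had 0 called. Nrp2, a co-receptor, differed by 0.44 between sexes, Kdr by -0.50 and Ctsd by 1.01. Of 14 genes of lymphatic valves and collectors, 0 were called, both males lay above all females for 8 (23.5% of all genes) and below them for 1 (8.26%). In that list Calcrl, the adrenomedullin receptor, differed by 1.14, Gja1 by 1.30 and Acvrl1 by 0.91.

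Ligands, receptors, enzymes and adaptors that work with the members gave 0 of 15 genes called in either comparison, and 3 were above background on no array. Ccr7, the receptor of Ccl21 on leukocytes, had values of 5.99, 5.12 and 4.26 in the knockout animals and of 6.58, 5.50 and 4.71 in the wildtype animals, above background on 3 arrays. Clec1b, which encodes the Pdpn receptor CLEC-2, and Vldlr, a receptor of Reln, were below background on all 6. Of the hyaluronan genes that bear on Lyve1, Cd44 was 8.27 to 9.87 in the knockout and 8.62 to 11.01 in the wildtype, and the hyaluronidase Hyal1 averaged 8.69 ± 0.24 against 7.72 ± 0.44 (difference 0.97, limma unadjusted p = 0.0206, adjusted 0.999). Nrp1, a semaphorin co-receptor, was above background on 1 array and Plxna2 on all. Msn, which encodes the membrane linker moesin, had the highest signal of the list.

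Lyve1 and Pdpn are also made outside the lymphatics, so markers of those cells are given beside them. Of the 8 skin macrophage markers tested, 6 were below background on all 6 arrays, among them Mrc1 and, named after their values were seen, Csf1r and F13a1, and only Cd68 and C1qa were above it on all. The macrophage mean was 5.03, 5.03 and 4.54 in knockout 28, 27 and 52, against 5.47, 5.14 and 4.56 in wildtype 34, 45 and 37. The part of macrophages in the values of Lyve1 was not tested. Leukocyte markers (highest Lcp1, Cd68 and Cd74; 0 called) were above background on no array for 4 of 10, with list means of 5.70 to 6.32 in the knockout and 5.67 to 7.17 in the wildtype.

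Of 8 keratinocyte and 12 fibroblast markers tested, 0 passed in either comparison. Of the keratinocyte markers 6 of 8 had an unadjusted p under 0.05 (limma) with lower values in males, against 3.84% of all genes. Both males lay below all females for 5 of 8, against 8.26% of all genes, with a list median of -2.17. Krt15 differed by -5.01, Krt1 by -3.94 and Perp by -2.54. Fibroblast means were 8.04, 7.38 and 7.32 in the knockout animals and 9.29, 7.53 and 7.46 in the wildtype animals, with Col3a1, Dcn and Fbn1 of highest signal. Knockout 27 and wildtype 45 had fibroblast means of 7.38 and 7.53, close to the males, and Pdpn at 10.31 and 10.07, against 7.87 and 6.11 in the males. The other females, knockout 28 and wildtype 34, had fibroblast means of 8.04 and 9.29 and Pdpn at 9.64 and 9.69. Keratinocyte means were 7.62 in knockout 27 and 9.59 in wildtype 45, 9.95 in knockout 28 and 11.80 in wildtype 34, against 7.36 and 7.13 in the males. Sema3d was highest, at 10.03, in wildtype 34, the array with the highest keratinocyte and fibroblast means. The part of these cells in the differences of Pdpn, Sema3d and the other members was not tested. Blood endothelial markers had means of 14.78 and 14.57 in males 52 and 37, against 13.77 to 14.37 in the females, and 0 of 20 were called. That list includes the gene of CD31, which lymphatic endothelium shares, and genes that are also in the valve and collector list. Its mean is therefore not one of blood endothelium alone.

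**Figure D5:**
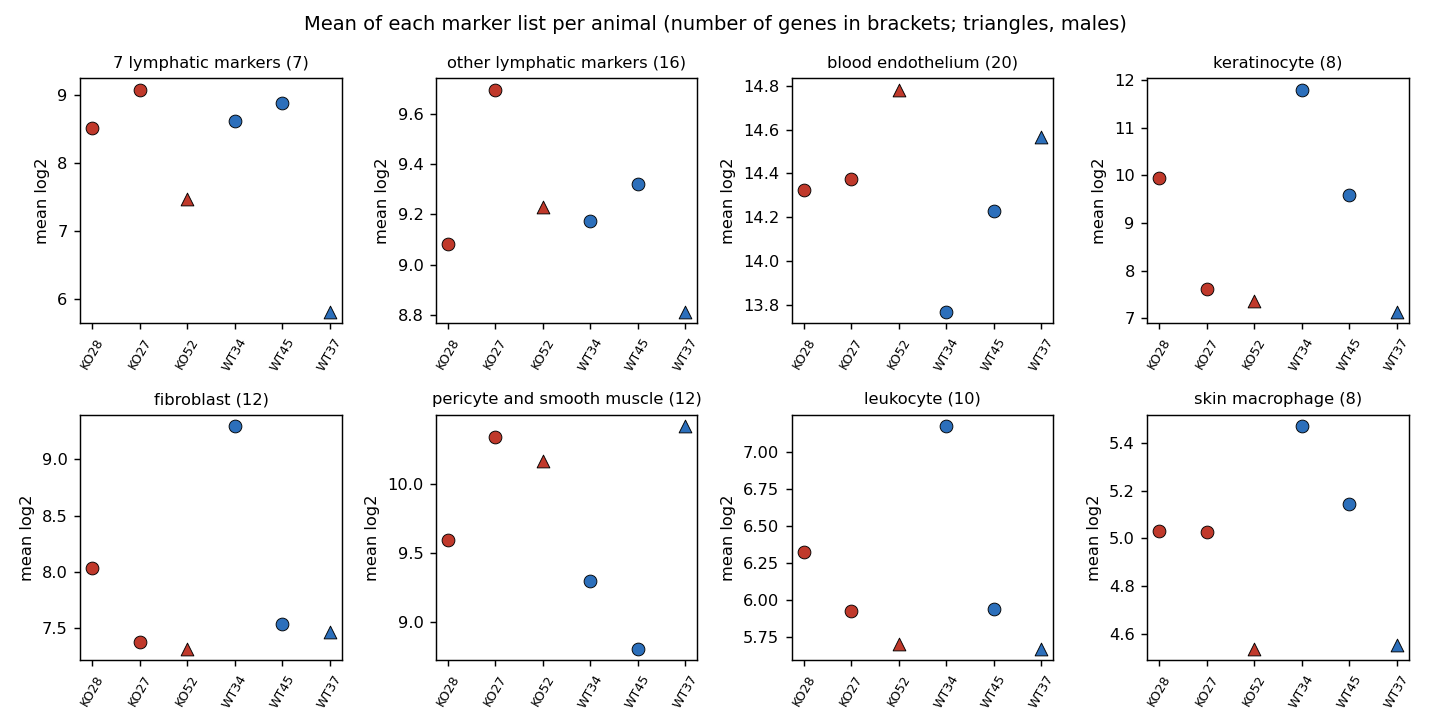
Mean log2 expression of each marker list per animal, knockout animals (red) left of wildtype animals (blue), with triangles for the males and the number of genes in brackets. The 7 lymphatic markers are lowest in both males (7.47 and 5.80), the blood endothelial markers highest in them, and the keratinocyte markers range widely among the females. Some genes of the blood endothelial list are shared with lymphatic endothelium.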

How the data were processed

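Total RNA of sorted skin endothelial cells from 6 rats was hybridised to Affymetrix arrays. The deposited values are taken as log2 expression per probeset, which the authors obtained by RMA (Expression Console of Affymetrix is the tool in the submitters' processing notes). No source used here gives its version or the genome build. That they are log2 rests on RMA and their range; they reach 19.93. They were used without further scaling.

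Of 24834 probesets, 1646 are controls, 15049 have 1 symbol in the platform annotation, 0 several and 8139 none. The 15037 genes (highest-mean probeset) were filtered at the 25th percentile of all probeset means (3.52), which left 11515. Genotypes were compared by limma 3.58.1 under R 4.3.3, and males with females in a model with genotype, with Benjamini-Hochberg adjusted two-sided p-values over all genes and a threshold of 0.05. An exact permutation test of 3 against 3 cannot go below 0.1, so none was run between genotypes; correlations over 6 arrays were tested over all 720 pairings. Lists were matched by symbol (lymphatic, partners, blood endothelium, keratinocyte, fibroblast, pericyte, leukocyte, macrophage, erythroid, glia, melanocyte). Named genes are those called in a list and its 3 of highest mean, and any kept gene of the partners list; exceptions are marked as chosen after seeing values. Alternatives changed the filter, scaling, variance options, covariates and arrays included. The scripts were tested on simulated data. The members and lists were chosen with earlier results of these data known.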

Additional observations from a re-analysis of the deposited data

Results flagged for a closer look

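Among the 4 females, Foxc2 was 3.83 in wildtype 45 and 4.49 to 4.60 in the other 3, a gap large enough against the range for Dixon's test at the 95% level. All of these values are below background. Of 22 gene and list values tested this way 1 stood out, and chance flags about 5% of such groups.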

How the results depend on the processing

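Between genotypes no member was called under any of 18 alternatives, and the number of genes called was 0 without the dim filter, with a filter at the 50th percentile and in females only, and 0 to 1 on leaving out each array. Il33 was called in 10 of 18. Member differences kept their direction in 114 of 125 cases. Prox1 turned to 0.017 on centring by array medians, 0.555 with the spike-in side as a block and 0.54 with the keratinocyte covariate, and Sema3d to 0.215 and 0.68 with that block and covariate. On leaving out each array the differences ran from -0.94 to 0.87 for Prox1, -1.45 to 0.62 for Sema3d, -0.61 to 1.37 for Pdpn and -0.57 to 1.17 for Reln. Leaving out a male array also leaves its genotype without a male, which mixes sex into these ranges. Between sexes the genes called were 3, against 29 with median centring, 6 with centring on blood endothelial markers, 26 with trend and robust options, 717 with array weights, 27 with sex alone and 2 to 66 on leaving out each array. Ccl21 was called in 9 of 17 alternatives (adjusted p 0.000641 to 0.877), Pdpn in 6, Reln in 5 and Sema3d in 1. Foxc2 turned to 0.025 with the keratinocyte covariate, and Lyve1 ran from -1.70 to 0.125 on leaving out each array. Pairs of members passing the permutation test became 2 on centring by blood endothelial markers, and pairs with r above 0 became 12 within females. The causes were not tested. The counts without a male array were added after seeing the data. No paired analysis was possible because the genotypes share no replicate numbers.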

Other observations

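Pericyte and smooth muscle markers, 12 tested, had means of 9.60, 10.34 and 10.16 in knockout 28, 27 and 52, against 9.30, 8.81 and 10.42 in wildtype 34, 45 and 37, and 0 were called in either comparison. Rgs5, Pdgfrb and Des were not called either, and differed between sexes by 0.71, 0.62 and 1.88. Erythroid genes, 4 tested, had means of 12.90, 9.44 and 10.37 in the knockout animals and of 9.75, 7.58 and 10.12 in the wildtype animals, highest in knockout 28. Markers of nerve and glia (4 tested, means 5.36 to 5.49 in the knockout and 5.29 to 5.49 in the wildtype) and of melanocytes (3 tested, 4.42 to 4.60 and 4.54 to 4.82) had 0 called.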
